A study of Mus musculus with 2 samples.

Results

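The genes described here encode 10 secreted growth factors of the vessel wall: the VEGF ligands Vegfa, Vegfb, Vegfc and Pgf, the angiopoietins Angpt1 and Angpt2, and the PDGF ligands Pdgfa, Pdgfb, Pdgfc and Pdgfd. They were chosen by name, and all 10 were found among the 55573 genes listed. RNA-seq was performed on mesenteric arteries, the resistance arteries that supply the intestine, of 10-week-old wild type C57BL/6 mice. One library came from arteries kept in 5 mM K+ (control) and one from arteries depolarized with 60 mM K+, both for 60 min according to the labels, and the tissue of 2 mice was pooled in either. A single library stands for each condition, so differences could not be checked against replicates and the conditions are compared without p-values. The supplementary methods describe control tissue as the distal part of the arterial bed, harvested before perfusion with 60 mM K+ began, so segment and time in solution cannot be told apart from K+ if that holds for these libraries. All solutions contained tetrodotoxin, which blocks nerve activity, according to the same methods.

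VEGF ligands are made by many cells of the vessel wall and act on receptor tyrosine kinases of the endothelium, where they drive vessel growth, permeability and survival. Vegfa is the main ligand of Kdr (VEGFR2), Vegfb and Pgf bind Flt1 (VEGFR1), and Vegfc binds Flt4 (VEGFR3), the receptor of lymphatic growth. Angiopoietin-1 from mural cells activates the endothelial receptor Tek (Tie2) and stabilizes vessels, whereas angiopoietin-2 is released by activated endothelium and mostly antagonizes it. PDGF-A and PDGF-C act on Pdgfra, PDGF-D acts on Pdgfrb and PDGF-B on both; Pdgfrb is the receptor through which endothelium recruits pericytes and smooth muscle. The study asked which genes Ca2+ entry during depolarization induces through CREB, a transcription factor that binds the cAMP response element (CRE).

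The promoter windows of these genes, from 250 bases before to 50 bases after each transcription start, were taken from RefSeq (build GRCm38.p6). Windows were found for 7 of the 10 genes, 10 windows in all; Pdgfb, Angpt1 and Angpt2 had none in the table. Both strands were searched for the CRE TGACGTCA and its core TGACG, which lies within it, for ACGTG, the core of the hypoxia response element bound by HIF, for the GC box GGGCGG bound by Sp1, and for the AP-1 site TGAGTCA. The 250 upstream bases are shown for Pdgfa and Vegfa, the ligands with the largest increases, and for Vegfc, whose interval held 0 with the scaling used here but which was lower with total counts and with Ppia and Hprt. Capitals mark the GC box and TGACG on either strand.
Pdgfa, minus strand, chr5:138994945-138995194: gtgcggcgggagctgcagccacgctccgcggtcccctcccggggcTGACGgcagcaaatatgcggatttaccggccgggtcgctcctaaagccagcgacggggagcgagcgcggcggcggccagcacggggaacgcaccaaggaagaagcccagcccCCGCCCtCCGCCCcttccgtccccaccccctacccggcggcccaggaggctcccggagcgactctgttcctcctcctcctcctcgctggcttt
Vegfa, minus strand, chr17:46032378-46032627: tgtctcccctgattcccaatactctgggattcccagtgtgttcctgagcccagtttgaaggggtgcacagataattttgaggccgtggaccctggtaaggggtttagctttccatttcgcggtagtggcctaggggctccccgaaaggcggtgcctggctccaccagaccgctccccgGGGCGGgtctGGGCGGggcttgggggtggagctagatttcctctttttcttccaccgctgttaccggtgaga
Vegfc, plus strand, chr8:54077282-54077531: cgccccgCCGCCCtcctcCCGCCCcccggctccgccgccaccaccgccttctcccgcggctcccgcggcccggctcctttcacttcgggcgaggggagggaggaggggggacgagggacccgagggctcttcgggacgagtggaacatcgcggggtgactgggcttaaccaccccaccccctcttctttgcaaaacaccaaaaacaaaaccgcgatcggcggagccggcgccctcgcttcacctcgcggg

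GC boxes were the most common of these motifs. They lay in 7 of the 10 windows, belonging to 5 ligands, compared with 35.7% of all 32851 RefSeq windows. The CRE core TGACG lay in 3 windows, 1 each of Vegfa, Pdgfa and Pdgfd, compared with 20.8% of all windows. In the Vegfa window at a second, downstream start it overlapped the only ACGTG of the 10 windows, a motif held by 19.6% of all windows. No window held the full CRE (1.79% of all windows) or the AP-1 site (5.2% of all windows). The Vegfc, Pdgfa and Vegfa windows printed here carried 2 GC boxes each. These matches describe letters in short windows and not bound sites.

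Pdgfa and Vegfa were the most abundant of the 10 ligands as FPKM, the deposited values that divide fragments by gene length and library total. They also had the most reads. The lengths behind FPKM were uneven, at 1103 bases for Pdgfa, 1230 for Vegfa, 2596 for Pdgfd and 2947 for Pdgfc. Pdgfa and Pdgfd each have 3119 exonic bases by the GENCODE vM1 annotation. The order, family shares and ratios per length therefore depend on the lengths used, which the intervals do not cover. In 5 mM K+, Pdgfa stood at 124 FPKM (95% exact Poisson interval 118 to 131), Vegfa at 81.2 FPKM (76.4 to 86.3) and Vegfc at 41.3 FPKM (37.7 to 45.0). Below these, Pgf at 30.7 FPKM, Pdgfd at 29.4, Vegfb at 28.1 and Pdgfb at 27.0 followed in steps no larger than counting error. Pdgfc at 20.9 FPKM, Angpt2 at 16.1 and Angpt1 at 9.06 were each lower than the gene above them by more than counting error. All intervals in this account cover counting error only, and the depth behind them was 10480918 reads on genes in the 5 mM K+ library and 11289598 in the 60 mM K+ library.

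In 60 mM K+ the top pair kept its place, with Pdgfa at 172 FPKM (165 to 179) and Vegfa at 108 FPKM (103 to 114). Vegfa then exceeded Vegfc, the next gene in the order, 3.03-fold (95% exact interval 2.73 to 3.36), compared with 1.97-fold (1.77 to 2.19) in 5 mM K+. Vegfc at 35.7 FPKM, Pdgfb at 34.0, Vegfb at 30.1, Pdgfd at 27.8 and Pgf at 25.0 formed a run in which no neighbors differed beyond counting error. Within it, Pdgfb was placed 4 in 60 mM K+ and 7 in 5 mM K+, and Pgf the reverse. Pdgfc at 17.1 FPKM and Angpt2 at 16.7 could not be separated, and Angpt1 at 6.58 FPKM (5.73 to 7.52) was again the lowest. Of the summed FPKM of the 4 VEGF ligands, Vegfa made up 44.8% in 5 mM K+ and 54.4% in 60 mM K+. Pdgfa made up 61.7% and 68.5% of the sum of the 4 PDGF ligands.

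**Figure D1:**
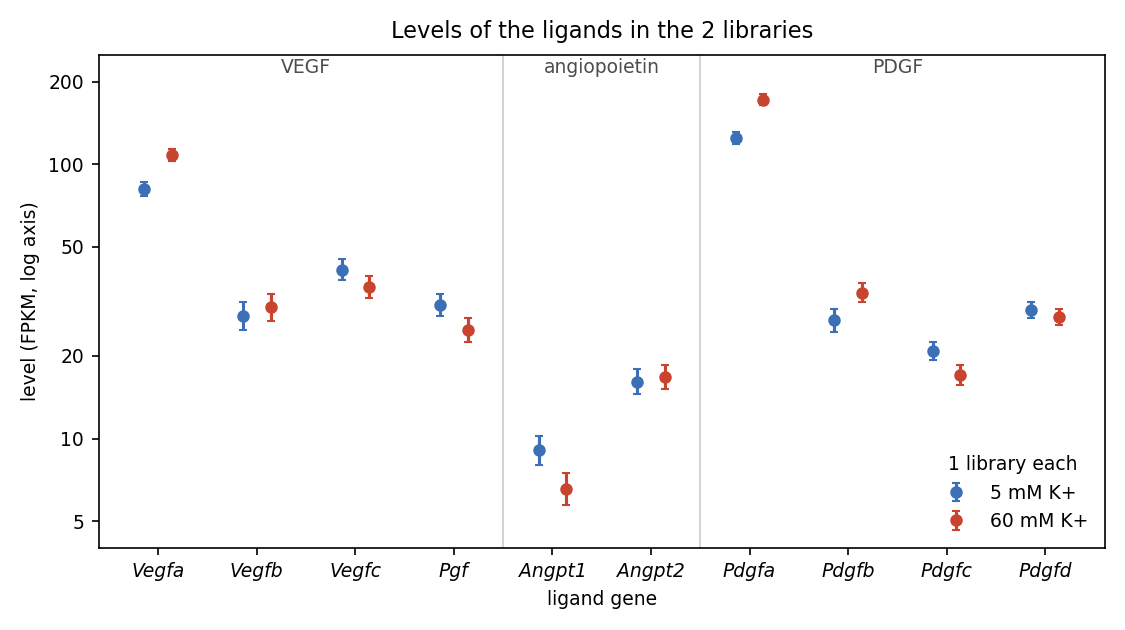
Level of each ligand gene in FPKM (log axis) in the 5 mM K+ library (blue) and the 60 mM K+ library (red), with 95% exact Poisson intervals for counting error as bars. Pdgfa and Vegfa lie above all other ligands in both libraries, at 124 and 81.2 FPKM in 5 mM K+ and at 172 and 108 FPKM in 60 mM K+, and Angpt1 lies below all others.

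To compare the libraries, log2(fold-change) of 60 mM K+ over 5 mM K+ was computed from the read counts, with libraries scaled by the trimmed mean of M-values (TMM) of edgeR. Each value has a 95% Clopper-Pearson interval from the share of a gene's reads in the 60 mM K+ library. A gene is called higher or lower beyond counting error where this interval lies wholly on one side of 0. By this measure 5 of the 10 ligands were higher (Pdgfa, Vegfa, Pdgfb, Vegfb and Angpt2), 0 were lower and 5 were not separated from 0. Of the 14829 genes whose reads summed to 10 or more, 25.0% were higher and 20.3% were lower by the same rule. The ligands had between 490 and 3578 reads, and of the 5527 genes in that range 35.7% were higher and 22.1% were lower, a background added after the values were seen. The median log2(fold-change) of the ligands was 0.20, and that of all genes with at least 10 reads was -0.0047.

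No ligand passed a 2-fold limit in either direction, which 5.54% of all genes did upward and 5.86% downward. Past a 1.5-fold limit, 2 ligands were higher and 0 were lower, compared with 11.9% and 13.1% of all genes. The differences among the ligands are therefore small beside the largest changes in these libraries. Such sizes are also sensitive to the spread between libraries, which 1 library per condition does not show. With an assumed coefficient of variation of 0.1 between libraries, 3 ligands stayed above 0, and with 0.2 none did. The scaling also matters, since total counts lower every log2(fold-change) by 0.21 and scaling to Ppia and Hprt, the reference genes of the study's qPCR, lowers it by 0.51. Pdgfa, Vegfa and Pdgfb were positive and Angpt1, Pgf and Pdgfc negative under all 5 scalings. With Ppia and Hprt, however, the counting intervals of Vegfa and Pdgfb held 0.

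Pdgfa, which encodes the A chain of PDGF and signals through Pdgfra, showed the largest increase of the 10 genes. Its 1437 reads in 5 mM K+ compared with 2141 in 60 mM K+, which was 1.60-fold higher after scaling, or 0.68 as log2(fold-change) (interval 0.58 to 0.77). This was above 90.1% of all genes with at least 10 reads. The gene (ENSMUSG00000025856) lies on the minus strand at chr5:139451968-139473324 of mm9, by the GENCODE vM1 annotation. Of its 3119 annotated exonic bases, 813 are shared with 6330403L08Rik on the opposite strand, which had 319 and 419 reads. No source states that strand was used in counting, and reads of this pair cannot be told apart with certainty.

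Vegfa, the founding member of its family and the classical growth and permeability factor of endothelium, followed. Its reads numbered 1047 in 5 mM K+ and 1501 in 60 mM K+, 1.54-fold higher, at 0.62 on the log2 scale (0.51 to 0.74). It lies on the minus strand at chr17:46153942-46169326 (ENSMUSG00000023951), where the annotation shows no overlapping gene. The counts are per gene, so its splice forms, which differ in their binding to matrix, were not resolved.

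Pdgfb, the B chain through which endothelium recruits mural cells, came next. It went from 434 to 590 reads, 1.46-fold higher, at 0.54 on the log2 scale (0.36 to 0.73). The gene lies at chr15:79826330-79845238 on the minus strand (ENSMUSG00000000489). Pdgfa, Vegfa and Pdgfb thus had the largest values. Their lowest interval bound, 0.36 for Pdgfb, lay above the point estimates of the other ligands, but not above all of their intervals. The interval of Vegfb reached 0.54 and overlapped those of Vegfa and Pdgfb, and that of Angpt2 reached 0.47 and overlapped that of Pdgfb.

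Vegfb and Angpt2 were higher by less, and both turned negative with scaling to Ppia and Hprt. Vegfb, a Flt1 ligand linked to metabolism more than to vessel growth, had 284 and 328 reads, at 0.31 (0.08 to 0.54). Angpt2, the Tek antagonist, had 356 and 398 reads, at 0.26 (0.05 to 0.47). Vegfb lies at chr19:7056963-7062141 (ENSMUSG00000024962). Angpt2 lies at chr8:18690263-18741562 (ENSMUSG00000031465), within Mcph1 on the opposite strand, with no shared exonic bases.

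For the other 5 ligands the counting interval held 0. Pdgfd, a Pdgfrb ligand, had 800 and 815 reads, at 0.13 (-0.01 to 0.27), a value that was negative with total counts and with Ppia and Hprt. Vegfc had 505 and 471 reads, at 0.00085 (-0.18 to 0.18), negative under the 4 other scalings. Pdgfc, a Pdgfra ligand, had 644 and 568 reads, at -0.08 (-0.25 to 0.09). For Pgf, placental growth factor, there were 448 and 393 reads, at -0.09 (-0.29 to 0.11). Angpt1 had the lowest value of the 10 genes, with 275 and 215 reads, at -0.25 (-0.52 to 0.01). Its interval reached 0 by a small margin, and it lay wholly below 0 with upper-quartile and median-of-ratios scaling.

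These 5 genes lie on mm9 at chr9:6168612-6378843 (Pdgfd), chr8:55162886-55271808 (Vegfc), chr3:80840338-81017962 (Pdgfc), chr12:86507589-86518246 (Pgf) and chr15:42256273-42508523 (Angpt1). Pdgfc shares 147 exonic bases with Gm16000 on the opposite strand, which had 0 reads in both libraries, and Angpt1 shares 283 with Gm17473, which was not analysed here.

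**Figure D2:**
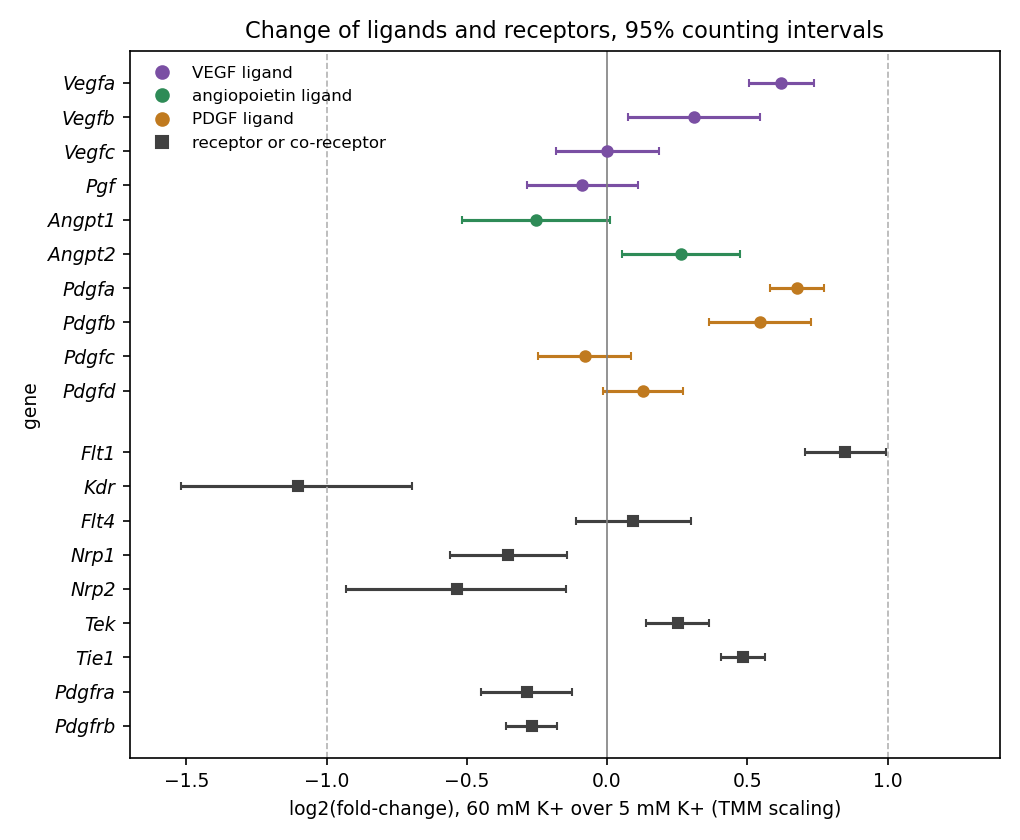
log2(fold-change) of the 10 ligands (circles, colored by family) and of 9 receptors and co-receptors (squares), 60 mM K+ over 5 mM K+ with TMM scaling; bars are 95% counting intervals and dashed lines mark a 2-fold difference. Pdgfa, Vegfa and Pdgfb lead the ligands at 0.68, 0.62 and 0.54, and Kdr, at -1.10, is the only gene shown past the 2-fold line.

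Ratios between ligands of the same family do not depend on how the libraries are scaled. For all 13 pairs within the 3 families, the change of the read ratio from 5 mM K+ to 60 mM K+ was computed as an odds ratio with its exact 95% interval. A value above 1 means that the ligand named first gained on the other. In each pair the ligand with the larger log2(fold-change) was named first, so every value is above 1 by construction. The pairs share the same 10 genes, and pairs of other genes were not computed. In 10 of the 13 pairs the interval excluded 1, and with an assumed coefficient of variation of 0.2 in each of the 4 counts it did so in 0 pairs. Counting error alone was thus exceeded in most pairs, and the spread between libraries is not known. Single genes in the read range of the ligands also exceeded it often, with 35.7% higher and 22.1% lower. Whether other pairs would do so as often was not tested.

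Angpt2 exceeded Angpt1 1.78-fold per length in 5 mM K+ and 2.54-fold in 60 mM K+. The ratio of this antagonist to the Tek agonist was thus 1.43 times as high in the depolarized library (1.13 to 1.81). In the VEGF family, the ratio of Vegfa to Pgf was 1.63 times as high (1.39 to 1.92) and that of Vegfa to Vegfc 1.54 times (1.32 to 1.79). Vegfa also gained on Vegfb, by 1.24 times (1.04 to 1.49), whereas the ratio of Vegfc to Pgf, at 1.06 times (0.880 to 1.28), was not separated from 1.

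Among the PDGF ligands, the A and B chains gained on the C and D chains, which are secreted with a domain that must be cut off outside the cell. The ratio of Pdgfa to Pdgfc was 1.69 times as high in 60 mM K+ (1.48 to 1.93), the largest value of the 13 pairs, and per length it went from 5.96 to 10.1. The ratio of Pdgfb to Pdgfc was 1.54 times as high (1.30 to 1.83), that of Pdgfa to Pdgfd 1.46 times (1.30 to 1.65) and that of Pdgfb to Pdgfd 1.33 times (1.14 to 1.57). Within the classical pair Pdgfa and Pdgfb the value was 1.10 times (0.949 to 1.26), and within Pdgfd and Pdgfc 1.16 times (0.992 to 1.34), so neither was separated from 1.

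**Figure D3:**
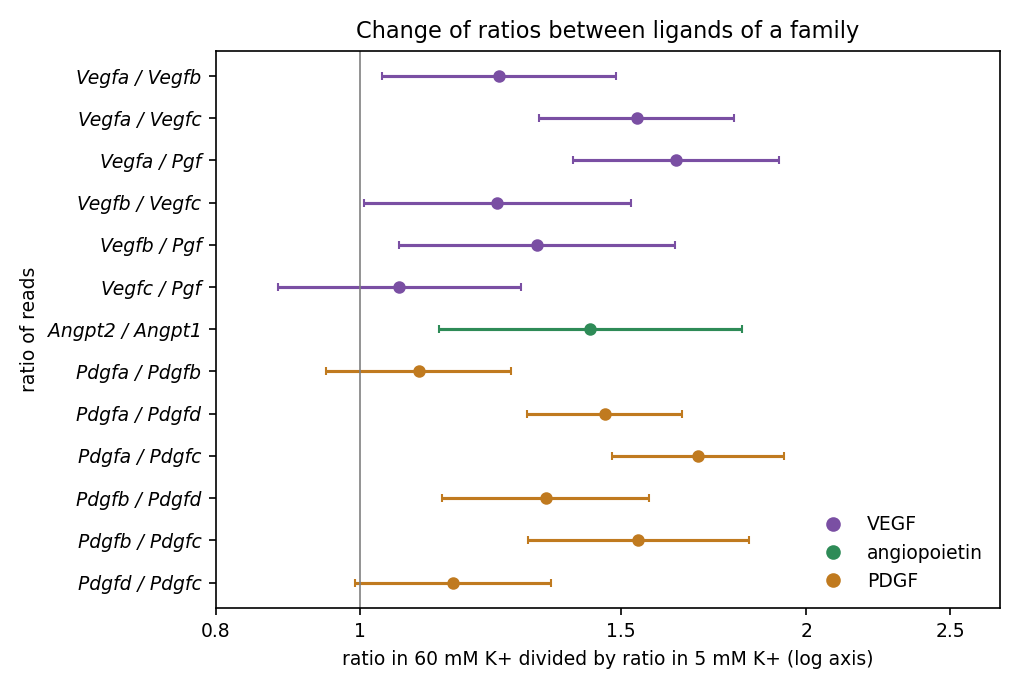
For the 13 pairs of ligands within a family, the ratio of reads in 60 mM K+ divided by the same ratio in 5 mM K+ (log axis), with exact 95% intervals as bars and a line at 1. The ligand with the larger log2(fold-change) is named first in each pair, so all values exceed 1 by construction. The values run from 1.06 for Vegfc to Pgf up to 1.69 for Pdgfa to Pdgfc, and 10 of the 13 intervals lie above 1.

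Of 9 receptors and co-receptors, 3 were higher and 5 lower beyond counting error, compared with 25.0% and 20.3% of all genes, with a median log2(fold-change) of -0.27. With Ppia and Hprt, 1 was higher and 7 were lower. That scaling puts the median of all genes at -0.51, and the matching shares of all genes were not computed. The shares of 25.0% and 20.3% therefore do not apply to counts with Ppia and Hprt, here or in the lists below. Flt1, which binds VEGF-A, VEGF-B and PlGF and also exists as a soluble trap, had 630 and 1058 reads, at 0.85 (0.71 to 0.99). Kdr, the signaling receptor of VEGF-A, went the other way, with 168 and 73 reads, at -1.10 (-1.52 to -0.70). Both kept their sign under all 5 scalings. The soluble form of Flt1 was not resolved by counts per gene.

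Flt4, the VEGF-C receptor, had 394 and 392 reads, at 0.09 (-0.11 to 0.30). The co-receptors Nrp1 and Nrp2 were lower, at -0.35 (-0.56 to -0.14) and -0.53 (-0.93 to -0.15). Of the angiopoietin receptors, Tek was at 0.25 (0.14 to 0.36) and Tie1, its partner without a ligand of its own, at 0.49 (0.41 to 0.56), and both turned negative with Ppia and Hprt. The PDGF receptors were lower under all 5 scalings: Pdgfra went from 733 to 560 reads, at -0.29 (-0.45 to -0.13), and Pdgfrb from 2315 to 1791 reads, at -0.27 (-0.36 to -0.18). In the PDGF family, then, the A and B chains had more reads in 60 mM K+ and the receptors of both chains had fewer.

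The families hold further ligands, of which 4 were listed for comparison. Angpt4, the third Tek ligand, stood at 59.8 FPKM in 5 mM K+ and 73.1 in 60 mM K+, above both Angpt1 and Angpt2, with a log2(fold-change) of 0.50 (0.40 to 0.60) that was -0.01 with Ppia and Hprt. Figf, which encodes VEGF-D, had 556 and 638 reads, at 0.30 (0.13 to 0.47), and was negative with Ppia and Hprt. Among relatives that do not bind Tek, Angptl2 was at -0.05 (-0.18 to 0.08), and Angptl4, a lipase inhibitor made in fat, was at -0.47 (-0.67 to -0.28).

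Several ligands are made as precursors, and among 10 genes for processing 4 were higher and 2 lower beyond counting error, not far from the 25.0% and 20.3% of all genes. With Ppia and Hprt, 3 were higher and 5 lower. Plat (tissue plasminogen activator), which activates PDGF-C, had 1667 and 3905 reads, at 1.33 (1.25 to 1.41). Plau (urokinase), which activates PDGF-D, had 833 and 1973 reads, at 1.35 (1.23 to 1.46). Both passed the 2-fold limit, while their substrates Pdgfc and Pdgfd had intervals that held 0. Furin, a convertase that cleaves PDGF-A, PDGF-B and VEGF-C precursors and is named here after its value was seen, was at 0.70 (0.57 to 0.83). At the other end were Pcsk6 at -0.15 (-0.30 to -0.0038) and Ccbe1, a cofactor of VEGF-C processing, at -0.09 (-0.54 to 0.37). Mmp9, a gelatinase, was the other gene below 0, with only 16 and 3 reads.

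Vegfa is a classical target of hypoxia-inducible factors, so the oxygen-sensing pathway was set beside it. Of its 8 genes, 7 were higher and 1 lower beyond counting error, compared with 25.0% and 20.3% of all genes, with a median of 0.42. Calls are more common with more reads, at 35.7% and 22.1% in the read range of the ligands. Some members lie above that range, such as Epas1 with 25689 reads. Egln3, a prolyl hydroxylase and itself a HIF target, had 104 and 280 reads, at 1.53 (1.20 to 1.87), and Hif1a was at 0.63 (0.54 to 0.72). The lowest were Arnt at 0.22 (0.09 to 0.36) and Hif1an, the asparaginyl hydroxylase, at -0.41 (-0.62 to -0.21). Of 12 other targets of this pathway, 8 were higher, 0 were lower and 4 were not separated from 0, with a median of 0.44. The glucose transporter gene Slc2a1 led with 289 and 1047 reads, at 1.96 (1.77 to 2.15), followed by the lactate dehydrogenase gene Ldha at 0.87 (0.79 to 0.94). Pdk1 at -0.01 (-0.29 to 0.27) and Car9 at -0.09 (-0.53 to 0.35) were the lowest. Vegfa at 0.62 lay inside the range of these targets, -0.09 to 1.96. That range is wide, from above 42.0% to above 98.7% of all genes with at least 10 reads, so many genes fall inside it. The part of this pathway in the Vegfa value was not tested. With scaling to Ppia and Hprt, the medians of the pathway and of its targets were -0.08 and -0.07, compared with -0.51 for all genes. The pathway then had 2 genes higher and 3 lower, and the targets 3 higher and 4 lower.

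Of 12 transcription factors known to act on these ligand genes, 9 were higher, 1 lower and 2 not separated from 0. Of all genes 25.0% were higher and 20.3% lower, and of those in the read range of the ligands 35.7% and 22.1%. Several factors lie above that range, up to Egr1 with 56305 reads, so their intervals are narrower, and no share matched to their reads was computed. With Ppia and Hprt, 4 were higher and 4 lower, and the median went from 0.39 to -0.12, compared with -0.51 for all genes. Ets1, an endothelial factor, had 354 and 1135 reads, at 1.78 (1.61 to 1.96), and Atf4, a stress factor that can act on Vegfa, 2764 and 6074 reads, at 1.24 (1.17 to 1.30). Sp1, which binds GC boxes, was at 0.07 (-0.08 to 0.22), and Creb1 was at -0.32 (-0.50 to -0.15).

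Genes known to respond to the ligands were set beside them, although many respond to other stimuli as well. The VEGF and PDGF lists were written with earlier results of these data known. The study itself lists Plaur, Rcan1, Nos3, Ccl2, Myc and Ier3 as up-regulated, so the counts below are descriptive and no independent support. It also lists Plat, Plau, Slc2a1, Ets1 and Atf4, so the same holds for the protease, oxygen-sensing and transcription factor lists above. Of 12 genes induced by VEGF in endothelium, 11 had at least 10 reads, of which 7 were higher and 2 lower, with a median of 0.49. This compares with 25.0% and 20.3% of all genes, and with 35.7% and 22.1% in the read range of the ligands. Some members lie above that range, such as Nr4a1 with 92325 reads. With Ppia and Hprt, 3 were higher and 4 lower and the median was -0.018, compared with -0.51 for all genes. The urokinase receptor gene Plaur at 1.89 (1.69 to 2.09), Rcan1, an inhibitor of calcineurin, at 1.37 (1.28 to 1.46) and Nos3, endothelial nitric oxide synthase, at 1.10 (0.99 to 1.21) passed the 2-fold limit. Tissue factor, F3, was at -0.41 (-0.52 to -0.31), and Egr3 at -0.11 (-0.25 to 0.03).

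Of 8 genes induced by PDGF, 7 were higher and 0 lower, compared with 25.0% and 20.3% of all genes, with a median of 1.08. In the read range of the ligands the shares were 35.7% and 22.1%. Fos, with 68890 reads in all, and Egr1, with 56305, lie above that range and have narrow intervals. With Ppia and Hprt, 4 were higher and 2 lower, with a median of 0.57, compared with -0.51 for all genes. Ccl2 at 2.98 (2.54 to 3.45), Fosl1 at 1.82 (1.08 to 2.62), Myc at 1.68 (1.51 to 1.86) and Ier3 at 1.25 (1.18 to 1.32) passed the 2-fold limit. Fos at 0.42 and Egr1 at 0.35, the lowest among members with at least 50 reads, were already abundant in 5 mM K+, with 30685 and 25741 reads, and both turned negative with Ppia and Hprt.

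**Figure D4:**
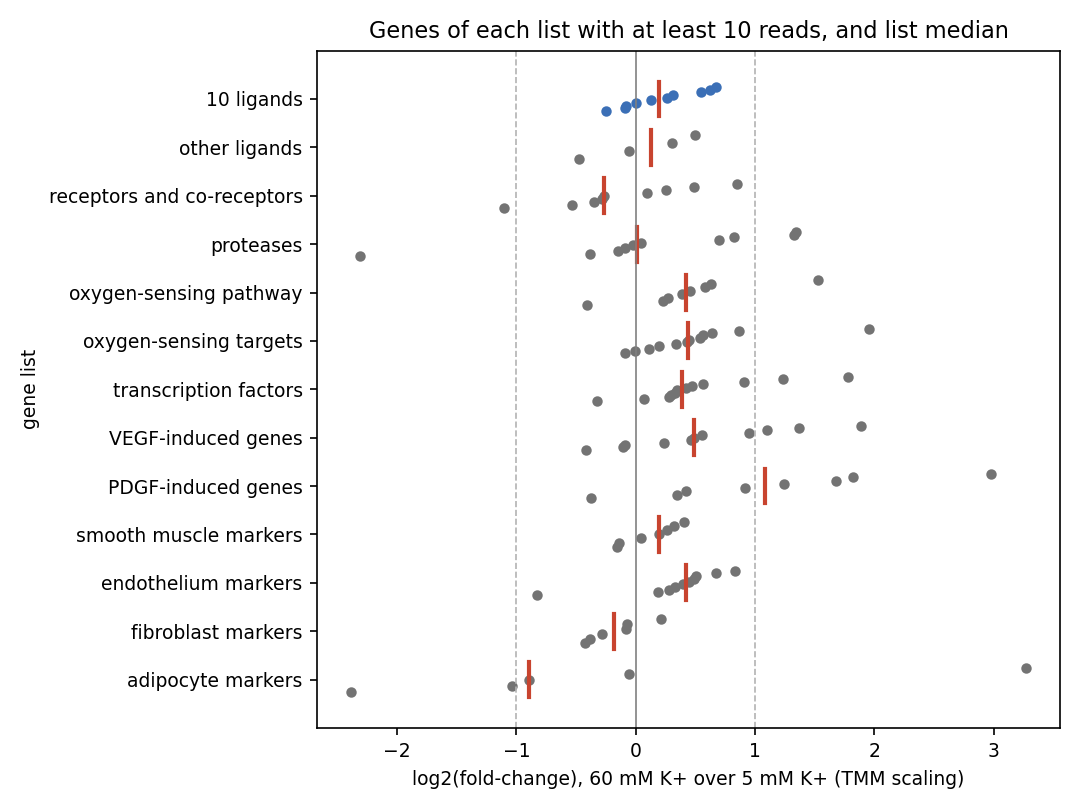
log2(fold-change) with TMM scaling in the ligand set (blue), in 8 lists of related genes and in 4 lists of cell type markers (gray); each dot is a gene whose reads summed to 10 or more, red bars are list medians and dashed lines mark a 2-fold difference. The ligands span -0.25 to 0.68 around a median of 0.20, with the medians of the oxygen-sensing targets at 0.44 and of the PDGF-induced genes at 1.08 above them and that of the receptors at -0.27 below.

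These are bulk libraries, in which fewer cells of a type and less RNA per cell cannot be told apart. Smooth muscle markers were abundant, with Acta2 at 12480 and 12366 FPKM, although Tagln, usually among the most abundant, stood at 31.0 and 35.5 FPKM, and their 7 log2(fold-change) values ran from -0.16 to 0.40. Of 10 endothelium markers, 9 were higher and 0 lower beyond counting error, compared with 25.0% and 20.3% of all genes. Their median was 0.42, or -0.09 with Ppia and Hprt, where that of all genes was -0.51. Their summed level was 3614 and 4944 CPM (reads scaled to library size). Pdgfb at 0.54, Angpt2 at 0.26, Tek at 0.25 and Tie1 (itself on this list) at 0.49 lay within the range of those 9 markers, 0.19 to 0.83. So did Pdgfa at 0.68, Vegfa at 0.62 and Vegfb at 0.31. Flt1 at 0.85 lay above the range, and Flt4 at 0.09, Nrp1 at -0.35, Nrp2 at -0.53 and Kdr at -1.10 lay below it. The tenth marker, Emcn, had 21 and 11 reads, at -0.83 (-2.03 to 0.29), and is left out of that range. With Emcn included, Flt4, Nrp1 and Nrp2 would lie inside. The range was set by markers called higher, from Egfl7, above 66.9% of all genes with at least 10 reads, to Cdh5, above 92.6%. Genes called higher for any reason can fall inside it. The part of endothelial RNA in the values of these genes was not tested.

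Of 6 fibroblast markers, 1 was higher and 5 were lower, among them Pdgfra, compared with 25.0% and 20.3% of all genes, with a median of -0.18. Adipocyte markers went from 101 to 18 reads for Plin1, from 97 to 44 for Adipoq and from 146 to 73 for Cidec, whereas Fabp4 had 1060 and 951 reads and Lep 1 and 9. Of the lymphatic markers, Lyve1 went from 318 to 135 reads, Prox1 from 35 to 21 and Pdpn from 203 to 340. Pancreatic markers moved the other way, with Pnlip at 2 and 61 reads and a summed level of 11.4 and 39.5 CPM. The 5 pericyte markers had a median of 0.01 and the 4 Schwann cell markers one of -0.27. Macrophage markers had a median of -0.09, and red blood cell markers one of -0.64. Platelets themselves carry PDGF and VEGF. Of their 5 markers, Itga2b went from 7 to 45 reads, at 2.79 (1.63 to 4.18), Pf4 from 21 to 8 reads, at -1.29 (-2.68 to -0.06), and Gp1ba from 21 to 19 reads, while Ppbp and Gp9 had at most 2 reads. Adgre1 (macrophage) and Ccl21a (lymphatic) were not matched. The 5 mesothelium and 4 lymphocyte markers were at or near 0, with at most 4 reads in a library, and Msln, Upk3b and Lrrn4 had none. The part of these cell types in the ligand values was not tested.

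**Figure D5:**
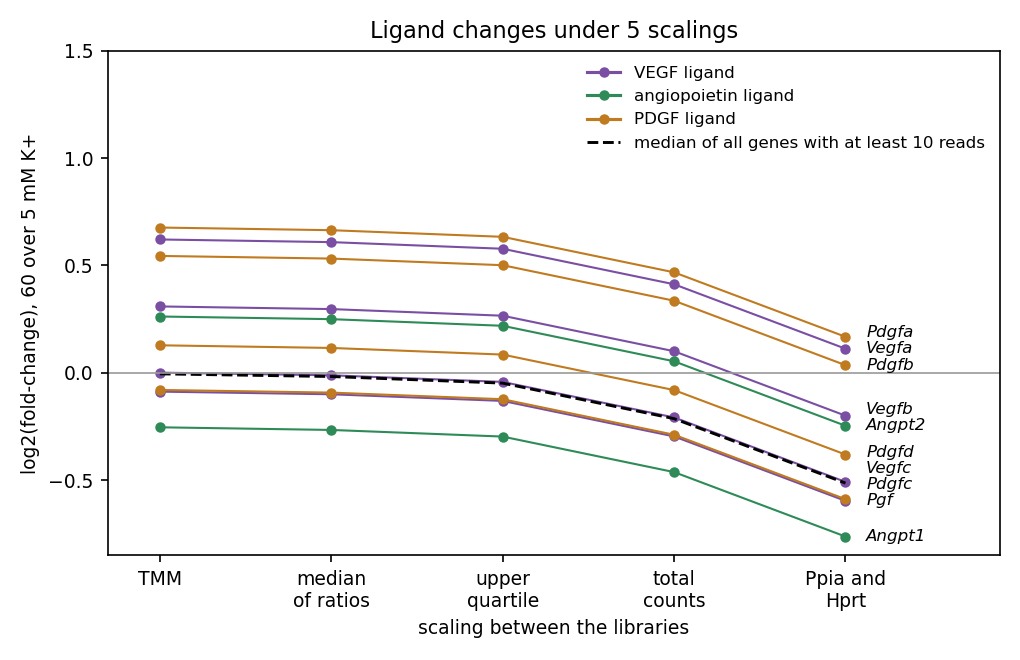
log2(fold-change) of the 10 ligands (colored by family) under 5 ways to scale the libraries, with the median of all genes with at least 10 reads as a dashed line; each scaling shifts all genes by the same amount. The values of Pdgfa, Vegfa and Pdgfb stay above 0 throughout, down to 0.17, 0.11 and 0.04 with Ppia and Hprt. With that scaling the counting intervals of Vegfa and Pdgfb, not drawn here, hold 0. The gap between each ligand and the dashed line does not depend on the scaling.

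Read against the median of all genes, Pdgfa, Vegfa, Pdgfb, Vegfb, Angpt2, Pdgfd and Vegfc were above it and Pdgfc, Pgf and Angpt1 below it. These sides are the same under every scaling, but the median is itself a choice of reference, at -0.0047 with TMM scaling. The intervals of Pdgfd, Vegfc, Pdgfc, Pgf and Angpt1 held 0 with TMM scaling, so their sides were not resolved. Ppia and Hprt themselves had log2(fold-change) of 0.51 (0.47 to 0.55) and 0.47 (0.31 to 0.63) with TMM scaling, above 85.6% and 84.1% of all genes with at least 10 reads. Relative to these reference genes Pdgfa was 0.17, Vegfa 0.11 and Pdgfb 0.04 higher on the log2 scale. With this scaling the counting interval lay wholly above 0 for 1 ligand, Pdgfa, and wholly below 0 for 6. The intervals of Vegfa and Pdgfb then held 0. The median of all genes was -0.51 with this scaling, and the matching shares of all genes were not computed.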

How the data were processed

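According to the study's methods, reads were aligned to mm9 with TopHat2. The submitters' processing notes name TopHat2 2.0.12, HTSeq 0.6.1 and edgeR 3.0.8 without giving their roles; the annotation is not given in the sources used here. The authors deposited raw read counts per gene and FPKM values. The ratio of reads to FPKM between libraries was 1.08 for every gene with reads in both, the same as between the total counts, which shows that FPKM used total-count scaling.

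TMM factors (1.07 for 5 mM K+, 0.930 for 60 mM K+) came from edgeR 4.0.16 (R 4.3.3), and intervals from SciPy 1.17.1. A quasi-likelihood fit needs replicates and was not made. CPM use TMM-scaled library sizes. The interval script was tested on simulated data. Symbols were found for 32601 of 55573 identifiers, with 99.1% of the reads of each library. Intervals cover counting error only, because each condition has 1 library. No molecular identifiers are described, so amplified copies may be counted as separate reads and the intervals may be too narrow.

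The genes, lists, motifs and alternatives were chosen with earlier results of these data known. Genes named are the 10 ligands, the receptors and, in each other list, members past 2-fold and the 2 highest and 2 lowest, all with at least 50 reads; Furin, Mmp9 and the marker genes named were chosen after their values were seen. Alternatives were total counts, upper quartile, median of ratios (DESeq2 1.42.0), Ppia and Hprt, FPKM with pseudocounts of 0.1 and 1, no minimum of reads and one of 50, a 1.5-fold limit, and assumed coefficients of variation.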

Additional observations from a re-analysis of the deposited data

How the results depend on the processing

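No paired analysis was possible because there was a single library for each K+ concentration, and for the same reason no library could be left out. The number of ligands with an interval wholly above 0 was 5; it was 3 with total counts, 1 with Ppia and Hprt, and 3, 0 and 0 with assumed coefficients of variation of 0.1, 0.2 and 0.4, settings that add variation by construction. The number wholly below 0 was 0; it was 4 with total counts, 6 with Ppia and Hprt, and 1 each with median-of-ratios and upper-quartile scaling. The median log2(fold-change) of 0.20 became -0.013 with total counts, -0.013 and -0.014 with FPKM at pseudocounts of 0.1 and 1, and -0.31 with Ppia and Hprt. The median of all genes was then -0.21 with total counts and -0.51 with Ppia and Hprt. With a 1.5-fold limit 2 ligands were higher. Vegfb and Angpt2 changed sign to -0.20 and -0.25 with Ppia and Hprt. Filters on low counts changed no count of ligands. Of the values of single ligands, 29 left their counting interval and 29 stayed inside, besides the 2 sign changes of Vegfb and Angpt2; Pdgfd and Vegfc, whose intervals held 0, also took a negative sign, Pdgfd with total counts, FPKM and Ppia and Hprt (-0.08 to -0.38), and Vegfc in every scaling and FPKM alternative; of the list medians, 29 moved and 85 did not. Scaling by total counts changed the split of all genes past 2-fold from 48.6% higher with TMM to 31.9% (601 higher, 1285 lower), and Ppia and Hprt changed it to 13.7% (380 and 2395). What depth limits is the precision for the ligands with few reads, such as Angpt1 with 490 in all.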
